A study of Mus musculus with 7 samples.

Results

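The genes examined were the mouse potassium and calcium channel genes, taken as every gene whose symbol begins with Kcn or Cacn in the GENCODE mouse release 21 annotation. There were 125 of them among 55450 annotated genes, 99 named Kcn and 26 named Cacn. Of these, 120 were protein-coding and 5 were antisense transcripts of a channel gene. A peak was counted at a channel gene when the deposited list gave that gene's symbol to it, or when it lay in the gene or within 5000 bp upstream of it on GRCm38. Over the 4 peak lists, 67 peaks lay at 35 channel genes (28%), and 90 channel genes had none. Over protein-coding genes 15.9% had a peak in any list.

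The cells were ATDC5, which came from a mouse teratoma and turn into cartilage-like cells in medium with Insulin-Transferrin-Selenite. The peak lists came from 6 enriched DNA samples of the line, with no genetic change named in the labels. They comprised progenitors at day 0 (5mC, 1 sample) and cells under differentiation at day 5 (5hmC, 2 samples merged) and day 10 (5mC, 1 sample, and 5hmC, 2 samples merged). A seventh sample, day 0 input DNA, has no list and was not analysed here. There was 1 list per mark and day, so no value has a replicate spread and no difference was tested, and the Wilson or Poisson intervals given cover counting error only. Whether the samples came from separate cultures is not stated in the labels. Library depth is unknown, so peak numbers could not be scaled to it. The days are those of the labels. The text of the study gives other days and stages. Its supplement matches the day 10 5hmC list to an intermediate stage and the day 10 5mC list to chondrocytes. Both lists labelled day 10 may therefore not be of 1 day, and values that set them side by side may cross stages. In the file headers the 5mC lists are regions of 3-fold enrichment and the 5hmC lists regions of 10-fold enrichment, with the control not named. The methods describe a search for gain or loss of a mark, so absence from a list does not show that a site lacked the mark.

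Potassium channels let potassium leave the cell and so set and restore the membrane potential, while voltage-gated calcium channels open on depolarization and let calcium in as a signal. A potassium pore is made by alpha subunits that share a selectivity filter, and accessory subunits tune gating or trafficking. In a calcium channel a single large Cacna1 protein forms the pore, with beta, alpha-delta and gamma proteins bound to it. Chondrocytes express several of these families, and their channels take part in volume control and in calcium responses to load and to growth factors. 5mC is methylated cytosine, and the TET enzymes oxidize it to 5hmC, which is often found in gene bodies.

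The day 0 5mC list held 326 peaks and none lay at a channel gene, which at a limit of 3 counts allows up to 2.4% of the 125 genes. In that list 0.334% of all annotated genes and 0.556% of protein-coding genes had a peak. At day 10, 18 channel genes (14.4%, 95% Wilson interval 9.31 to 21.6%) had a 5mC peak, against 3.46% of all genes and 6.71% of protein-coding genes. At day 5, 14 channel genes (11.2%, 6.79 to 17.9%) had a 5hmC peak, against 2.81% and 5.27%. At day 10, 16 channel genes (12.8%, 8.03 to 19.8%) had a 5hmC peak, against 4.59% and 8.31%. The share of channel genes was thus above that of protein-coding genes in 3 of the 4 lists. Gene length moved with this difference. Of the 125 channel genes 36 were over 100 kb, against 2492 of 21951 protein-coding genes. Of these 36 channel genes 19 (52.8%) had a peak in at least 1 list, and 48.3% of protein-coding genes of that length did.

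**Figure D1:**
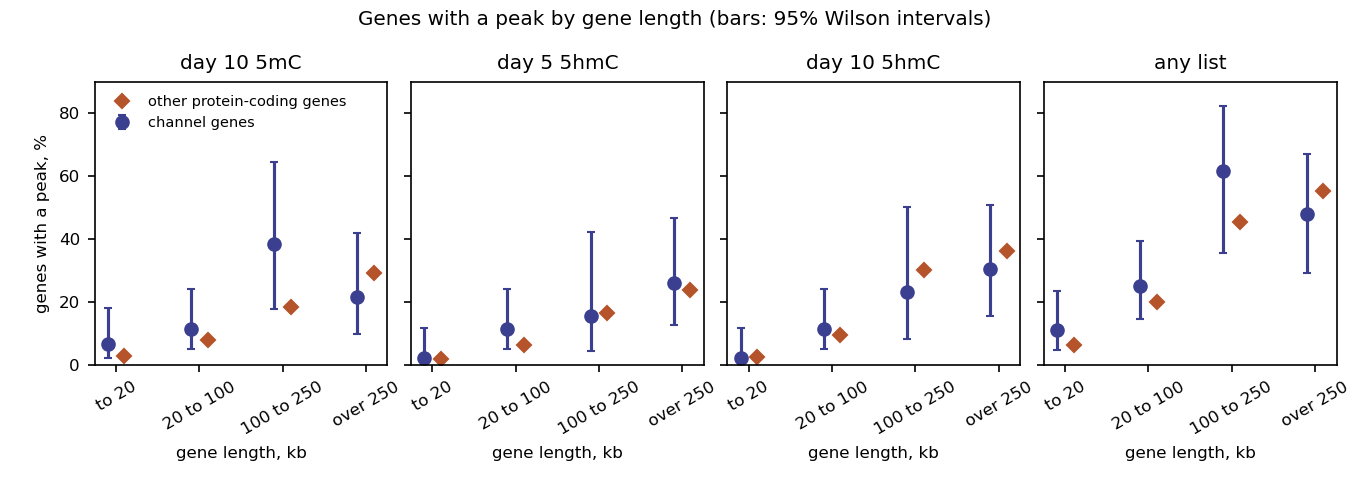
Percent of genes with a peak (vertical axis) by gene length in kb (horizontal axis), for the channel genes (circles with 95% Wilson intervals) and the other protein-coding genes (diamonds), in the 3 lists with channel gene peaks and in any list. For any list the channel genes stood at 11.1%, 25%, 61.5% and 47.8% from the shortest to the longest class, and the other genes at 6.4%, 19.9%, 45.4% and 55.3%.

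Among other protein-coding genes, the share with a peak in any list rose with each length class. Among channel genes it rose up to the class of 100 to 250 kb (61.5%) and was lower over 250 kb. Of the 45 channel genes of at most 20 kb, 5 (11.1%) had a peak in any list. Of the 23 of over 250 kb, 11 (47.8%, 29.2 to 67%) had one, against 55.3% of other protein-coding genes of that length. In every length class of each of the 4 lists the interval of the channel genes held the value of the other genes. Densities per Mb count peaks by position alone and leave out those joined only by symbol. At day 10 they rest on 21 of the 23 5mC peaks and 27 of the 29 5hmC peaks at channel genes. Scaled to the length searched, the channel genes had 1.32 day 10 5mC peaks per Mb (95% Poisson interval 0.819 to 2.02) and the other protein-coding genes 1.48. For 5hmC the densities were 0.945 (0.529 to 1.56) against 1.1 per Mb at day 5, and 1.7 (1.12 to 2.47) against 2.12 per Mb at day 10. Per Mb, the channel genes as a whole were therefore not above other genes in any list.

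**Figure D2:**
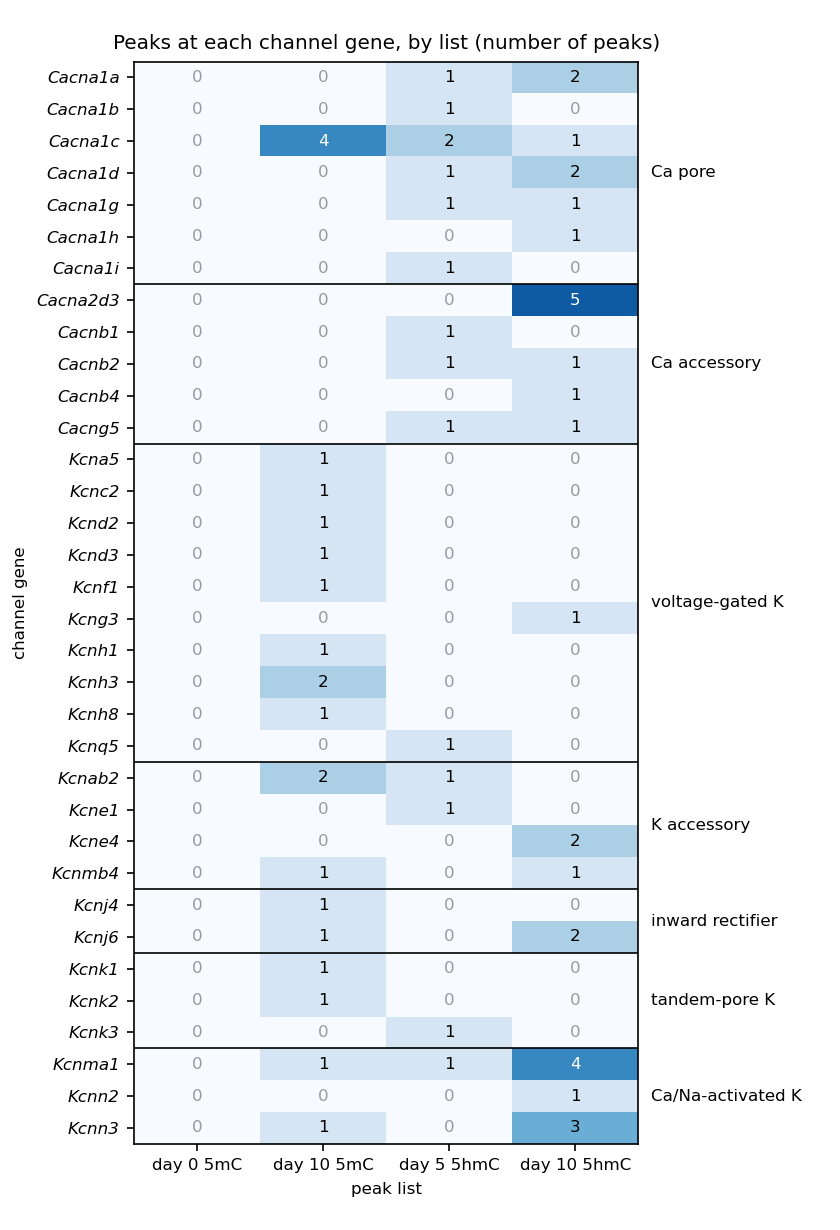
Number of peaks (cells) at each channel gene with a peak that is reported here (rows, grouped by role) in each of the 4 lists (columns). The day 0 5mC column is 0 throughout, the calcium channel rows hold peaks mainly in the 5hmC columns, and the voltage-gated potassium rows mainly in the day 10 5mC column.

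By share of genes with a peak, the calcium channel pore genes had the most frequent 5hmC of any role. A 5hmC peak in at least 1 list lay in 7 of these 10 genes (70%), against 11% of protein-coding genes and 38% of those over 100 kb, and 6 of the 10 were over 100 kb. The 7 were Cacna1a (P/Q type), Cacna1b (N type), Cacna1c and Cacna1d (L type), and Cacna1g, Cacna1h and Cacna1i (T type). Cacna1e (R type), Cacna1f and Cacna1s, the L-type pores of retina and skeletal muscle, had no peak in any list. There were 7 peaks at each day, or 2.98 per Mb (1.2 to 6.14) against 1.1 and 2.12 per Mb in other protein-coding genes at days 5 and 10. The interval left out the day 5 value of other genes and held the day 10 one. Per Mb the pore genes were not the highest role at day 10. The calcium accessory genes stood at 3 (1.3 to 5.91) and the calcium- or sodium-activated genes at 4.25 (1.83 to 8.37). With 7 roles and several lists set side by side and no test, a role whose interval leaves out the value of other genes is a description only. Cacna1a, Cacna1c, Cacna1d and Cacna1g were in both 5hmC lists, Cacna1b and Cacna1i in the day 5 list only, and Cacna1h in the day 10 list only. Only Cacna1c among them also had 5mC.

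Cacna1c, whose L-type pore carries calcium into heart and smooth muscle and is also made in bone and cartilage, had 7 peaks, the most of any channel gene over the 4 lists. Its 4 day 10 5mC peaks lay in introns at chr6:118962143-118963026, chr6:118998415-118999070, chr6:119071999-119073202 and chr6:119192139-119192984 on GRCm38, the last with its midpoint 3857 bp from the gene start and given to the neighbour Dcp1b in the list. The gene lies on the minus strand and spans 609 kb. The day 5 5hmC peaks lay at chr6:118621706-118622334 and chr6:119052792-119053637, both in introns. A day 10 5hmC peak of 122 bp at chr6:118630130-118630251 covered 27 coding bp and was 7796 bp from the nearest day 5 peak. The 5mC peaks all lay in the first 38.4% of the gene. The nearest 5hmC to a 5mC peak was 18362 bp away, in the day 5 list.

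In Cacna1a the day 5 5hmC peak was intronic (chr8:84554283-84555359), and the day 10 peaks lay in an intron (chr8:84501409-84501587) and wholly in coding exon 45 (chr8:84636523-84636643), over codons 2069 to 2109 of 2368. That exonic peak held 9 CpG in 121 bp, or 7.44 per 100 bp, against 4.55 in its flanks. It is shown on the plus strand because it was the only 5hmC peak at a channel gene that was wholly coding, with each CpG in capitals:
Cacna1a: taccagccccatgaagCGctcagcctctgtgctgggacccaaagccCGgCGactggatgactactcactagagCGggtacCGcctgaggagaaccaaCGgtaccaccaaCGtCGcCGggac

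Cacna1d had an intronic day 5 peak at chr14:30317740-30318209 and intronic day 10 peaks at chr14:30145179-30145308 and chr14:30206238-30206361, at least 111379 bp away. In Cacna1g, the day 5 peak at chr11:94465710-94466567 covered 246 coding bp of exons 2 and 3, and the day 10 peak at chr11:94469474-94469729 lay 2907 bp from it in an intron. The day 5 peaks of Cacna1d and Cacna1i held the string of AP-1, the factor family of Fos and Jun. The 200 bp around the first match are shown, from chr14:30317976-30318175 on the minus strand and chr15:80303814-80304013 on the plus strand, with TGACTCA or TGAGTCA in capitals. These stretches, like all others printed except those of Cacna1a and Kcnma1, were chosen after their values were seen.
Cacna1d: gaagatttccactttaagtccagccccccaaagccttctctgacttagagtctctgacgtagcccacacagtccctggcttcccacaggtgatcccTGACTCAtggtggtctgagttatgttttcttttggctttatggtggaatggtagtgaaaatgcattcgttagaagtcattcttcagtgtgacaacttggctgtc
Cacna1i: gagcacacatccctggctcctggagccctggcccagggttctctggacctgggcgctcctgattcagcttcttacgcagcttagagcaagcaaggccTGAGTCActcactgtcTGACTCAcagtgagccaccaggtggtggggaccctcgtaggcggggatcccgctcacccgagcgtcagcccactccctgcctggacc

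Of 16 accessory calcium channel genes, 5 (31.2%) had a peak, against 15.9% of protein-coding genes and 48.3% of those over 100 kb. That length was passed by 7 of the 16. All 5 had 5hmC and none 5mC, which 6.71% of protein-coding genes and 21.5% of those over 100 kb had at day 10. Per Mb, day 10 5mC at the 16 genes stood at 0 (0 to 1.38), against 1.48 in other protein-coding genes. The interval left out that value, but the difference was not tested. Cacna2d3, an alpha-delta subunit gene of 817 kb, had 5 day 10 5hmC peaks, the most of any channel gene in 1 list, and no day 5 peak. These intronic peaks of 99 to 166 bp lay at chr14:29080647-29080791, chr14:29181001-29181107, chr14:29387711-29387862, chr14:29683989-29684154 and chr14:29684197-29684295, the last pair side by side. The beta subunits, which bring the pore to the membrane, were represented by Cacnb1 (day 5), Cacnb2 (both days) and Cacnb4 (day 10). Cacnb1's peak lay over an untranslated exon at chr11:98003990-98004784.

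Cacnb2 was the member whose 5hmC lay at a CpG-dense start. Its day 5 peak at chr2:14604005-14604913 covered the first 36 codons of the longest coding sequence and part of the untranslated exon before them. It held 89 CpG in 909 bp, or 9.79 per 100 bp against 0.605 in its flanks, and the median over channel gene peaks of that list was 1.67. The peak overlapped the RefSeq promoter window of Cacnb2, and no other of the 92 channel genes with such a window had a 5hmC peak there. Over all genes 0.333% of windows had a day 5 5hmC peak and 0.185% a day 10 one. The day 10 peak of Cacnb2 was intronic, at chr2:14807702-14807840, 202789 bp away. Cacng5, whose product belongs to the gamma family that also traffics glutamate receptors, had a day 5 peak (chr11:107875544-107876655) over an untranslated exon with the whole day 10 peak (chr11:107875957-107876065) inside it.

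The AP-1 string also lay in day 10 peaks of Cacna2d3 and Cacnb4. The whole Cacnb4 peak is printed on the minus strand with the string in capitals, from chr2:52438345-52438502. It held 0 CpG, the only peak at a channel gene without one. Of all day 10 5hmC peaks, 6.56% held none.
Cacnb4: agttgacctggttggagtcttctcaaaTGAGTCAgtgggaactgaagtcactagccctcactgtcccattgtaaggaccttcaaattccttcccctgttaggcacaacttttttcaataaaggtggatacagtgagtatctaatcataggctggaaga

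Voltage-gated potassium alpha subunit genes held mostly 5mC. Of 40, 9 had a day 10 5mC peak, against 6.71% of protein-coding genes, and 2 (5%) had 5hmC, against 11%. No gene had both marks, and with 2.2% of protein-coding genes having both, 0 of 40 is near that share. The 5hmC genes were Kcnq5, which carries the M current (day 5), and Kcng3, a modifier subunit silent on its own (day 10). Their 5hmC density was 0.202 per Mb (0.00512 to 1.13) at each day, against 1.1 and 2.12 per Mb over other protein-coding genes. The day 10 interval lay below the second of these. The 5mC density, from the 8 peaks joined by position, was 1.62 per Mb (0.698 to 3.19) against 1.48. The 40 genes were shorter, at a median 29.2 kb, than the calcium pore genes at 135 kb.

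**Figure D3:**
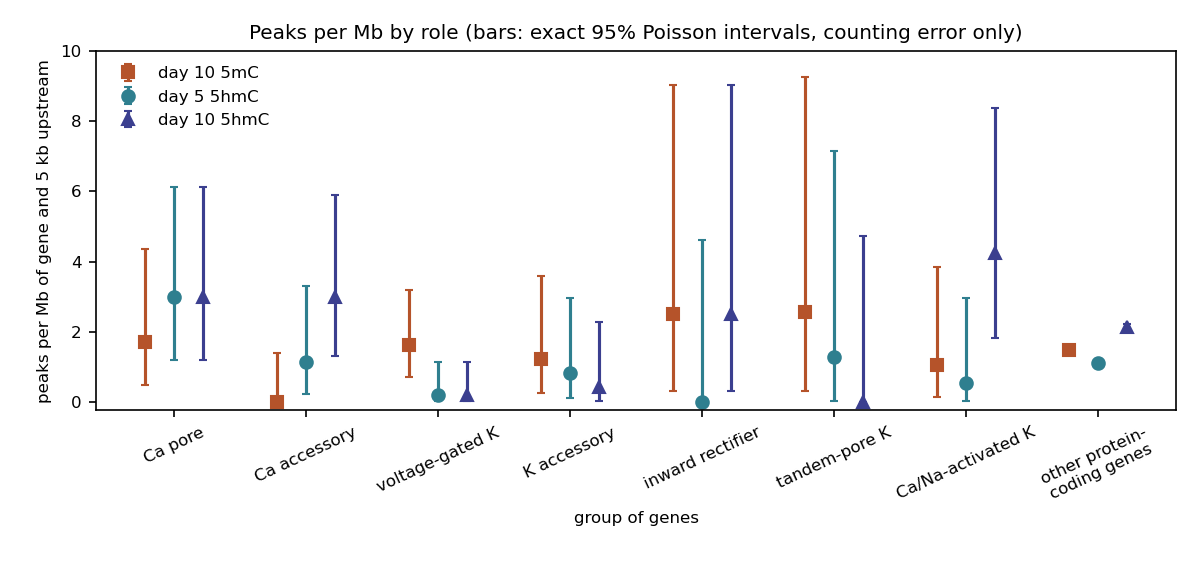
Peaks per Mb of gene and 5000 bp upstream (vertical axis) for each role and for the other protein-coding genes (horizontal axis), by list, with exact 95% Poisson intervals that cover counting error only. Voltage-gated potassium alpha genes stood at 0.202 per Mb in both 5hmC lists and calcium pore genes at 2.98. Most role intervals overlap.

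At 6 of these 9 genes the 5mC lay over coding sequence. In other protein-coding genes, 52.7% of the day 10 5mC peaks inside a gene did so, and no difference was tested. Kcnd2 and Kcnd3, which carry the fast A-type current, had peaks at chr6:21216332-21217288 and chr3:105459022-105459844 that were coding throughout (957 and 823 bp). Kcnc2, a fast-closing delayed rectifier, had 605 coding bp of 949 at chr10:112455264-112456212. Kcnh1, the ether-a-go-go channel, had 474 of 709 in exon 6 at chr1:192276581-192277289. In Kcnh3 a peak over exons 8 and 9 at chr15:99232960-99233800 had 245 coding bp, and another lay upstream of the gene start at chr15:99222283-99223260, with its midpoint at -2090 bp. Kcnh8 had an intronic peak. Kcna5 and Kcnf1 were named in the list for peaks at chr6:126541000-126542431 and chr12:17183759-17184543, which lay 5588 and 6871 bp upstream and so beyond the 5000 bp reach.

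The Kcnd2 and Kcnd3 peaks covered matching parts of related proteins, codons 12 to 330 of 630 and 69 to 343 of 655. In an alignment of their longest coding sequences, 773 bases lay under both peaks and 603 (78%) were identical. Kcnd2 had 30 CpG there and Kcnd3 38, of which 20 lay at the same place. The central 200 bp of each peak, from chr6:21216710-21216909 and chr3:105459333-105459532 on the plus strand, are shown with CpG in capitals. Of their 200 bp, the last 88 of Kcnd2 align with the first 88 of Kcnd3, with 78 identical:
Kcnd2: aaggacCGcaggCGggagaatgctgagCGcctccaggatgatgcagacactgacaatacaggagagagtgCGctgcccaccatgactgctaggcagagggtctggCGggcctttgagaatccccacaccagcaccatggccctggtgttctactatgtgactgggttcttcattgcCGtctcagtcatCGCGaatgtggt
Kcnd3: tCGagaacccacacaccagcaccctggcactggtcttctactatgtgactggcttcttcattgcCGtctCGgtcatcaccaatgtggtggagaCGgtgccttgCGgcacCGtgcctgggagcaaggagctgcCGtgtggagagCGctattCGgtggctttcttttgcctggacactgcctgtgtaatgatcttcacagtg

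Codons of the selectivity filter, the short signature that makes a pore choose potassium over sodium, were found in all 77 potassium pore genes with a translated coding sequence. The day 10 5mC peak of the inward rectifier Kcnj4 covered them, at chr15:79485367-79485381 with 1 CpG. The central 200 bp of this peak, from chr15:79485365-79485564 on the minus strand, are shown because they hold these codons, with CpG in capitals:
Kcnj4: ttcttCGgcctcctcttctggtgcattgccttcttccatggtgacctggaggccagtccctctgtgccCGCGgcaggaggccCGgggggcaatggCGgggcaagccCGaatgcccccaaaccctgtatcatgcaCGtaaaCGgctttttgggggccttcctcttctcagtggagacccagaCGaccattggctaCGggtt

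Inward rectifiers, which hold the resting potential and pass little outward current, had peaks at 2 of 15 genes (13.3%), near the 15.9% of protein-coding genes. In Kcnj4 the 5mC peak at chr15:79484887-79486043 had 891 coding bp of 1157 and 5.1 CpG per 100 bp. In Kcnj6, a subunit opened by G proteins, the marks came closest of any channel gene. A day 10 5mC peak at chr16:94983349-94984354 lay 2598 bp from a day 10 5hmC peak at chr16:94986952-94987080, both in an intron near the gene start, and a further 5hmC peak lay at chr16:94756445-94756559. None of the 67 peaks at channel genes overlapped a peak of the other mark, and 0.95% of all peaks in the 4 lists did, so this count was near that of the lists. The 5hmC peak near the Kcnj6 start is shown on the minus strand with CpG in capitals:
Kcnj6: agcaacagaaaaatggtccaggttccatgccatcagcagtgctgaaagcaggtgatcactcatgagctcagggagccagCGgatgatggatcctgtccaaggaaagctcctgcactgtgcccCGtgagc

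Tandem-pore channels, which carry the background leak of potassium, had peaks at 3 of 14 genes (21.4%), against 15.9% of protein-coding genes. Kcnk1 had an intronic day 10 5mC peak. Kcnk2, the stretch-sensitive channel, had a 5mC peak at chr1:189401554-189402757 that covered the first 34 coding bp and overlapped its RefSeq promoter window, as 0.281% of windows over all genes did. Kcnk3, the acid-sensitive channel, had an intronic day 5 5hmC peak with 1.07 CpG per 100 bp, while its flanks held 6.48.

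Accessory potassium channel genes had peaks at 4 of 17 (23.5%), against the same 15.9%. Kcnab2, a beta subunit of the Kv channels, had 5mC at chr4:152392611-152393559, over 87 coding bp at the last codons, and at chr4:152420755-152421767 in an intron, with day 5 5hmC at chr4:152462632-152463612. Kcnmb4, a beta subunit of the large-conductance channel, had intronic 5mC at chr10:116436348-116436803 and day 10 5hmC at chr10:116425033-116425255, 11093 bp apart. Kcne1, the partner of Kcnq1 in the slow cardiac current, had a day 5 5hmC peak at chr16:92348623-92349724 over 332 coding bp, from codon 1 to 111 of 129. Kcne4 was named for a pair of day 10 5hmC peaks just past its end, at chr1:78821099-78821223 and chr1:78821482-78821583.

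Among the 8 calcium- or sodium-activated genes, 3 (37.5%) had peaks, against 15.9% of protein-coding genes and 48.3% of those over 100 kb, a length that 4 of the 8 passed. Kcnma1, the large-conductance channel opened by calcium and voltage together, was with Cacna1c 1 of 2 genes in all 3 lists. It had 4 day 10 5hmC peaks, at chr14:23600205-23600436, chr14:23638463-23638600, chr14:23870748-23870883 and chr14:23902770-23902972. The day 5 peak at chr14:23902698-23903950 held the whole of the last one. The 5mC peak at chr14:23534789-23535538 lay 64667 bp from the nearest 5hmC, with 74.1% of its bases marked as repeat in the reference. All 6 lay in introns. Kcnn3, a small-conductance calcium-activated channel, had 5mC at chr3:89552991-89553915 and day 10 5hmC at chr3:89623983-89624108, chr3:89647262-89647383 and chr3:89671540-89671683, the last over an exon of a noncoding transcript. The 8 genes of this role had 8 day 10 5hmC peaks, 4 in Kcnma1, 3 in Kcnn3 and 1 in Kcnn2. That came to 4.25 per Mb (1.83 to 8.37), an interval that held the 2.12 per Mb of other protein-coding genes. The Kcnma1 region shared by both days, on the minus strand, and the second Kcnn3 peak, on the plus strand, are shown with CpG in capitals:
Kcnma1: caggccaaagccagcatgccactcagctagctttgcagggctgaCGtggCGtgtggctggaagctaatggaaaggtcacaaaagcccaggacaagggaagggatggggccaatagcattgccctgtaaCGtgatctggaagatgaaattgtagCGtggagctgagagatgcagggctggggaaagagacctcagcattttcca
Kcnn3: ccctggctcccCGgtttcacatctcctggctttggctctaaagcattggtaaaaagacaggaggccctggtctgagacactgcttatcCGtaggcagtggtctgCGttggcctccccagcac

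**Figure D4:**
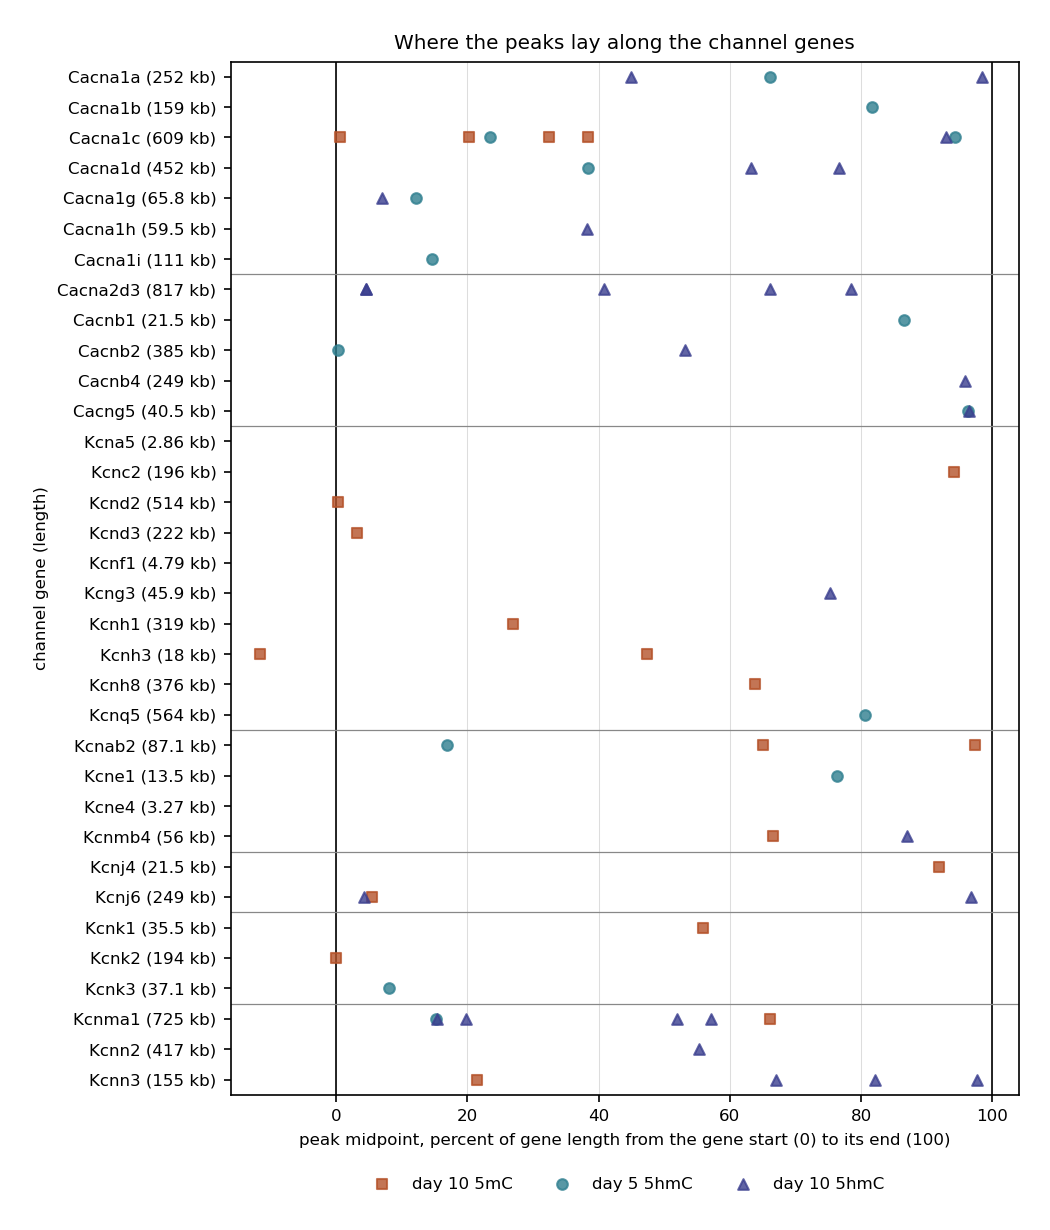
Midpoint of each peak (horizontal axis, percent of gene length from the gene start at 0 to the end at 100) at each channel gene reported here (rows, with length in kb). Squares are day 10 5mC, circles day 5 5hmC and triangles day 10 5hmC, and the peaks of Kcna5, Kcnf1 and Kcne4 that lay outside the gene and its upstream reach are not drawn. Circles and triangles coincide at Cacng5 and Kcnma1.

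Shared genes and shared regions were counted separately between the days. Of the 14 genes with day 5 5hmC, 7 (50%) were also in the day 10 list, against 48.1% over protein-coding genes, and these were 43.8% of the day 10 genes against 30.5%. Of the 15 day 5 peaks, only 2 (13.3%, 3.74 to 37.9%) met a day 10 peak, while 29.6% of the whole day 5 list did. The same 2 pairs were 6.9% (1.91 to 22%) of the 29 day 10 peaks, while 17.1% of the whole day 10 list met a day 5 peak. They were those of Cacng5 and Kcnma1. Neither pair shared 50% of both peaks, since day 10 peaks were narrower, with a median of 130 bp at channel genes against 909 bp at day 5. Of the 23 genes with 5hmC, 7 were in the day 5 list only and 9 in the day 10 list only. Of 2425 protein-coding genes with 5hmC, 1157 were in the day 5 list, 1825 in the day 10 list and 557 in both. The marks met in 6 genes, Cacna1c, Kcnab2, Kcnj6, Kcnma1, Kcnmb4 and Kcnn3, or 26.1% of genes with 5hmC and 33.3% of those with 5mC. Over protein-coding genes the shares were 19.9% and 32.7%.

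Within the genes, the share of peaks over coding exons was highest in the 5mC list. Of 20 day 10 5mC peaks inside a channel gene, 9 (45%, 25.8 to 65.8%) covered coding sequence, against 52.7% in other protein-coding genes, and 6 (30%) were coding over at least 50% of their length, against 14.5%. For 5hmC, 3 of 15 (20%) covered coding sequence at day 5 and 2 of 27 (7.41%) at day 10, against 23% and 7.69%. Median widths at channel genes were 949 bp for 5mC and 909 and 130 bp for 5hmC at days 5 and 10, and the part of width in these shares was not tested.

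Peaks at channel genes held more CpG than the DNA beside them. The median was 2.45 CpG per 100 bp in the 5mC peaks and 1.25 in flanks of equal width that began 2000 bp away. It was 1.67 against 1.02 for day 5 5hmC and 1.79 against 0.769 for day 10 5hmC. CpG content exceeded that of the flanks in 21 of 23 (91.3%), 12 of 15 (80%) and 23 of 29 peaks (79.3%), against 90.3%, 79.4% and 70.4% of all peaks in the lists. The list medians were 2.42, 1.61 and 1.8 per 100 bp, so the peaks at channel genes were near their lists in CpG content. The 5mC peaks with the most CpG per 100 bp were those of Kcnj4 (5.1), Kcnma1 (4.8) and Kcnd3 (4.62), among those reported here.

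**Figure D5:**
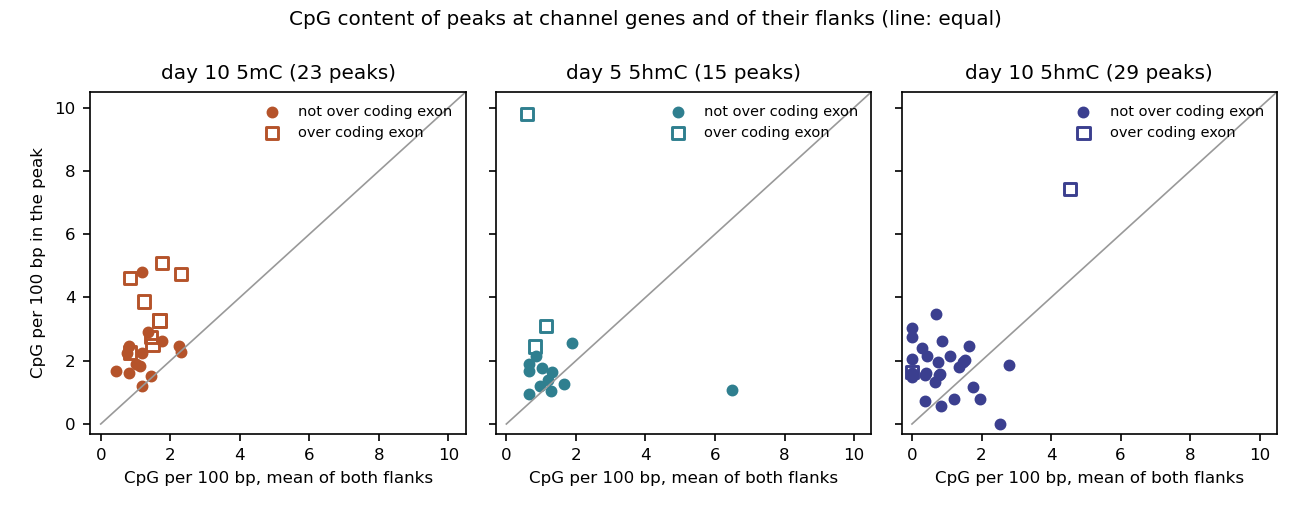
CpG per 100 bp in each peak at a channel gene (vertical axis) against the mean of its flanks (horizontal axis), by list, with peaks over a coding exon as open squares and the line of equality. Most points lie above the line, the day 5 point at 9.79 is Cacnb2, and the day 5 point far below the line is Kcnk3 with flanks at 6.48.

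The AP-1 string TGACTCA or TGAGTCA, searched on both strands, lay in 9 of the 15 day 5 5hmC peaks at channel genes (60%, 35.7 to 80.2%), against 43.1% of all day 5 peaks and 13.3% of flanks. At day 10 it lay in 4 of 29 (13.8%, 5.5 to 30.6%), those of Cacna1c, Cacna2d3, Cacnb4 and Cacng5, against 7.97% of all day 10 peaks. In a window of 200 bp around the midpoint, the days stood at 2 of 15 (13.3%) and 4 of 29 (13.8%), against 18.7% and 9.29% over the lists. The window was wider than most day 10 peaks at channel genes and so reached beyond them. With equal windows the day 5 share was not the higher one at channel genes, while over the whole lists it was. The counts at channel genes are small and the difference was not tested. The string lay in 4 of 23 5mC peaks (17.4%), against 13.4% of the list. The RUNX string AACCACA lay in 5 of 15 (33.3%) day 5, 5 of 29 (17.2%) day 10 5hmC and 6 of 23 (26.1%) 5mC peaks at channel genes, against 25.6%, 7.56% and 19.8% of the lists. The NF1 string, TGCCAAG after a C or a T, lay in 2 (13.3%), 1 (3.45%) and 5 (21.7%) of the same peaks, against 14.2%, 5% and 9.5%. These shares rest on few peaks and were not tested. A match describes letters only and is not a site of binding.

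Of 80 other ion channel and calcium handling genes, 24 (30%) had a peak in any list, against 28% of the channel genes and 15.9% of protein-coding genes, 12 (15%) in the day 10 5mC list, 9 (11.2%) in each 5hmC list and 1, Trpm8, in the day 0 5mC list. The median length of the 80 was 71.7 kb, against 37.1 kb for the channel genes. Over protein-coding genes, longer ones more often had a peak. Per Mb the 80 genes had 1.48 day 10 5mC, 0.986 day 5 5hmC and 0.888 day 10 5hmC peaks (0.406 to 1.68), the last below the 1.7 (1.12 to 2.47) of the channel genes with overlapping intervals. It also lay below the 2.12 of other protein-coding genes, which its interval left out, and this was not tested. Those with a peak included the calcium release channels Itpr1, Itpr2, Itpr3 and Ryr2, the store-operated entry genes Orai1 and Stim2, and the sodium channel genes Scn8a, Scn10a and Scn11a, of which these sodium channels had 5mC only. Trpv4, a calcium entry channel of chondrocytes that responds to osmotic and mechanical load, had a day 10 5hmC peak.

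The channel genes without a peak included long ones. Of 23 over 250 kb, 12 had none, among them Kcnip4, the longest at 1135 kb, Cacna1e, Kcnh7, Cacna2d1 and Kcnb2. A day 10 5mC peak lay 185 bp past the end of Kcnip4. It was not counted because the list did not give it that symbol, as it did for the peaks past the end of Kcne4. Kcnq1, Kcnq3, Kcnh5, Kcnab1, Kcnip1, Kcnmb2 and Kcnt2 were the others. Kcnn2 had 1 intronic day 10 5hmC peak and no other, and the 3 channel genes on the X chromosome had none.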

How the data were processed

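5mC and 5hmC were profiled in ATDC5 genomic DNA by affinity capture (a methyl-CpG binding complex for 5mC, and sugar tagging of 5hmC) and sequencing. As the methods of the study state, the authors trimmed the reads, aligned them to GRCm38 with BWA and called peaks with MACS 1.4.2 at default settings. The deposited lists hold positions in bp by chromosome, with gene symbols beside some peaks, and no count, score, fold or p-value per peak. Whether starts count from 0 or 1 is not given in the sources used here, so positions are printed as deposited and widths count both ends. Columns of per-sample values were absent, and depth is unknown.

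Peaks were joined to the GENCODE release 21 annotation by symbol or by position (gene and 5000 bp upstream). Between 98.2% and 99.6% of peaks with a known symbol lay within 10000 bp of that gene. Features (coding exon, untranslated exon, intron) are those of GENCODE over all transcripts of a gene, and gene models of RefSeq can differ. CpG, repeats (lower case in the reference) and motif strings were read from GRCm38 in peaks and in flanks of equal width. Python 3.11.15, SciPy 1.17.1, pysam 0.24.0 and Biopython 1.88 were used, and the scripts were tested on simulated data. The members, lists and roles were chosen with earlier results of these data known. Every channel gene with a peak is named, other than 1 that counts in the totals and is not reported here, and coordinates are given for genes in at least 2 lists, for genes with at least 3 peaks in 1 list and for peaks over exons or upstream. Other settings were the reach, the joining rule, peak width, overlap, flanks and motif window. Sequences over untranslated exons are not printed.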

Additional observations from a re-analysis of the deposited data

How the results depend on the processing

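Of 54 values computed under another setting, 50 stayed close to the reported one and 4 moved. Only the CpG differences from flanks could change direction, and none of them did. The values for day 0 5mC were 0 under every setting and so could not move. Counts over protein-coding genes only could not move either, since none of the 5 antisense members had a peak. Counts with a shorter upstream reach kept the peaks joined by symbol, so they do not show what that reach alone would give. With only peaks of at least the median width of their list, 8 channel genes in place of 18 had day 10 5mC and 6 in place of 16 had day 10 5hmC. Such a filter removes much of each list by construction. Requiring that day 5 and day 10 5hmC peaks share 50% of both lengths took the day 5 share with a partner from 13.3% to 0%. In a window of 200 bp around the midpoint, 13.3% of the day 5 5hmC peaks at channel genes held the AP-1 string in place of 60%. The narrower window and the unequal widths of the lists bear on these last values by construction. No paired analysis was possible because the numbered 5hmC samples were merged into 1 list per day before deposit and the 5mC lists have 1 sample each. For the same reason no replicate could be left out. Unknown depth and the control that the lists do not name limit all counts, and a site absent from a list was not shown to lack the mark.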
